A study of Mus musculus with 9 samples.

Results

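Unconventional myosins of hair cells (HCs), *Myo15a*, *Myo15b*, *Myo3a*, *Myo3b*, *Myo6*, *Myo1c*, *Myo1h* and *Myo10*, were taken by gene symbol from the gene counts of sorted mouse HCs. *Myo7a* was not included. All 8 were found among 43808 genes, and all 8 passed the low-count filter, which asked for 20 reads or more in 2 or more mice of a genotype and left 15184 genes to test. The HCs came from the cochleae and vestibular organs of 9 mice at postnatal day 1 (P1), with 1 library per mouse. There were 3 homozygous mutants with 2 copies of the Dmdo allele of *Mir96* (mice 43, 46 and 47), 3 heterozygotes with 1 copy (mice 45, 48 and 51) and 3 wild-type mice (44, 55 and 59). Dmdo is a point mutation in the seed of miR-96, a microRNA of sensory cells. The allele came on a C3HeB/FeJ background and was crossed to C57BL6 mice that carried *Atoh1/nGFP*, a transgene that marks HCs with a nuclear green fluorescent protein. All 3 genotypes therefore carried the reporter, and the sort kept cells positive for it and for the epithelial surface protein CD326. Cochlear and vestibular HCs were pooled within a mouse, so the counts cannot separate the organs.

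Unconventional myosins are actin motors that do not form muscle-like filaments. In an HC they work mainly in the hair bundle, the staircase of actin-filled stereocilia that detects sound and head movement. Some climb to the stereocilia tips with the proteins that set stereocilia length, at least 1 walks the other way and holds the membrane down at the stereocilia base, and others link the actin core to the membrane. Loss of *Myo15a* or *Myo6* deafens mice, and mutations of *MYO15A*, *MYO3A* and *MYO6* cause deafness in humans.

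The sequences that bear on a possible direct pairing are the miR-96 seed and its matches in the members' 3′ untranslated regions. The mature miRNA lies at chr6:30169506-30169528 on the minus strand of GRCm38.p6 (RefSeq). It is shown with its seed, bases 2 to 8, in capitals, above the same sequence with the substitution A7U, counted from 1 at the 5′ end, which is the Dmdo base.
mmu-miR-96-5p: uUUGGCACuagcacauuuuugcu
miR-96 with the Dmdo base: uUUGGCUCuagcacauuuuugcu

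The 3′ untranslated region searched for each of the 8 members came from the GENCODE annotation of GRCm38, and had 83 bases (*Myo3a*) to 3858 bases (*Myo6*). None held GTGCCAA, the 7-base match to the wild-type seed. Exon bases outside these regions were not searched. GAGCCAA, the 7-base match to the Dmdo seed, occurred once in *Myo1h*, inside chr5:114363194-114363220, and once in *Myo10*, inside chr15:25812223-25812243, both on the plus strand. They are shown with the match in capitals.
*Myo1h*: cgcttcctgaGAGCCAAcctagagtct
*Myo10*: agacGAGCCAAgcccacgtgt

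The promoters of the 2 class XV genes and of *Myo1h* are shown because their transcripts had the clearest differences between homozygous mutants and wild-type among the well-covered members. Each run is 250 bases before and 50 bases after the RefSeq start on GRCm38.p6, plus strand, and CAGNTG, a core of the E-box bound by basic helix-loop-helix factors such as Atoh1, is in capitals on either strand.
*Myo15a*, chr11:60469089-60469388: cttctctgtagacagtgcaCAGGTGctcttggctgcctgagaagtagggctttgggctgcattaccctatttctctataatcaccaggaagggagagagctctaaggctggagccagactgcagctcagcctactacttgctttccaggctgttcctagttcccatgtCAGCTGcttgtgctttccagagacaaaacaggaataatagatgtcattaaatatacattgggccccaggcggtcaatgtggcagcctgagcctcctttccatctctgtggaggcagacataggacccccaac
*Myo15b*, chr11:115857675-115857974: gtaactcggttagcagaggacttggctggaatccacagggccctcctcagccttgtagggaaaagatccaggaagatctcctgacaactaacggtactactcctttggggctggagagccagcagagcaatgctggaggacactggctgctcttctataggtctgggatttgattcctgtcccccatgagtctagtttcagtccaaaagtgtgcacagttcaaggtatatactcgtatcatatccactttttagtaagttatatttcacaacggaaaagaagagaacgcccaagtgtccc
*Myo1h*, chr5:114289003-114289302: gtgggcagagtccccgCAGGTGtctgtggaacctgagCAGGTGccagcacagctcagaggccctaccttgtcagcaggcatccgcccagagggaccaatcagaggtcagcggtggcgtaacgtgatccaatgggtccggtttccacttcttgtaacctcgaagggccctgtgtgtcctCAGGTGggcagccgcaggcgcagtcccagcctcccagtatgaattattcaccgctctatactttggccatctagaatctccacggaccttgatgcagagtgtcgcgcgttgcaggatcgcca

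The *Myo15a* window held 2 matches to CAGNTG, the first *Myo1h* window 3 and the *Myo15b* window 0, while 51.4% of 32851 RefSeq promoters of the same length held at least 1. The window of another RefSeq start of *Myo1h*, chr5:114356565-114356864, held 2 and is not shown. Windows of *Myo1c* held 1 or 0, and those of *Myo3a*, *Myo3b*, *Myo6* and *Myo10* held 0. Whether these matches bear on the levels was not tested. The RefSeq start of *Myo15b* at 115857925 lies upstream of the GENCODE start at 115858406, so the window covers only the RefSeq start.

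Total counts per library were 18175317 to 30932531 in homozygous mutant, 29470207 to 34873964 in heterozygous and 19677015 to 28486252 in wild-type HCs. The study reports lower RNA integrity for a wild-type sample and a homozygous mutant sample than for the rest. Its range of sorted cells per sample also reached lowest in homozygous mutants. Neither RNA integrity nor cell number was a term in the fits, and their part in the differences was not tested. In a principal component analysis of log2 CPM (CPM being counts scaled to a common library total), wild-type 59 stood apart on the first component and homozygous mutant 46 on the second, and the results below were also computed without both. All homozygous mutants, and of the others only heterozygote 45 and wild-type 44, had mouse numbers of 47 or lower. In every homozygous mutant, in heterozygotes 45 and 51 and in wild-type 55 the Y-linked *Ddx3y* had more counts than *Xist*, the RNA that silences an X chromosome in females. Neither the numbers nor sex can be fully told apart from genotype with these mice, and the point mutation is not read by gene counts. The 12 HC markers were all detected, with a summed level of 12415 to 16289 CPM in homozygous mutant, 14466 to 17416 in heterozygous and 15835 to 16736 in wild-type HCs.

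*Myo15b*, the paralogue of *Myo15a* and the other class XV gene, had the clearest fall in homozygous mutants among the well-covered members. It is on chromosome 11 of GRCm38, from 115858406 to 115892603. Its level was 64.3, 82.4 and 113 CPM in homozygous mutants 43, 46 and 47, 252, 449 and 356 CPM in heterozygotes 45, 48 and 51, and 242, 664 and 903 CPM in wild-type mice 44, 55 and 59. Every homozygous mutant was below every other library, by a clear gap between 113 and 242 CPM, whereas the heterozygous and wild-type libraries overlapped. The lowest read count behind these values was 1498, in homozygous mutant 46. The means were 86.7 ± 24.8 CPM in homozygous mutants, 353 ± 98.4 CPM in heterozygotes and 603 ± 334 CPM in wild-type HCs (SD, n = 3 each), so the mean was 6.95-fold lower in homozygous mutants than in wild-type HCs.

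In the edgeR quasi-likelihood test over all 9 libraries, *Myo15b* in homozygous mutants was at a log2 fold change of -2.89 relative to wild-type (standard error, SE, 0.41, 95% interval -3.76 to -2.02, adjusted p = 0.00739). A call needed an adjusted p (Benjamini-Hochberg) under 0.1 with a fold over 1.5, and this p was the fifth smallest of 15184. *Myo15b* was the single member called, 1 of 8 lower and 0 of 8 higher, where 1.15% of all genes tested were called, 0.915% lower and 0.237% higher. It was called under all 19 alternatives, with log2 fold changes of -3.28 to -1.92 and edgeR, DESeq2 or limma adjusted p up to 0.0762. In edgeR the difference was -1.92 with the mouse numbers in the model (adjusted p = 0.00611), -2.72 when the sex transcripts were a term (0.0561) and -2.40 without wild-type 59 and homozygous mutant 46 (0.0725). Among the mice numbered 47 or lower, the 3 homozygous mutants were at 64.3 to 113 CPM, against 252 CPM in heterozygote 45 and 242 CPM in wild-type 44.

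*Myo15b* also fell with the number of Dmdo alleles, by 1.45 per allele as a log2 value (SE 0.23, adjusted p = 0.0100, edgeR). It was 1 of 8 members to do so, where 1.78% of all genes passed, 1.34% lower and 0.435% higher. At an unadjusted p under 0.05, 4 of 8 members had a negative slope, where 8.07% of genes did, and 0 of 8 a positive one, where 5.16% did. This call of the trend was lost without wild-type 59 and homozygous mutant 46 together, where the slope was -1.20 (adjusted p = 0.149). Homozygous mutants relative to heterozygotes were at -2.02 (SE 0.40, adjusted p = 0.263, edgeR), with no overlap of the libraries. It was called there by DESeq2, by limma-voom, without the low-count filter, in a fit of the 2 genotypes alone and without wild-type 44. Between heterozygotes and wild-type it was -0.87 (SE 0.39, adjusted p = 1, edgeR).

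**Figure D1:**
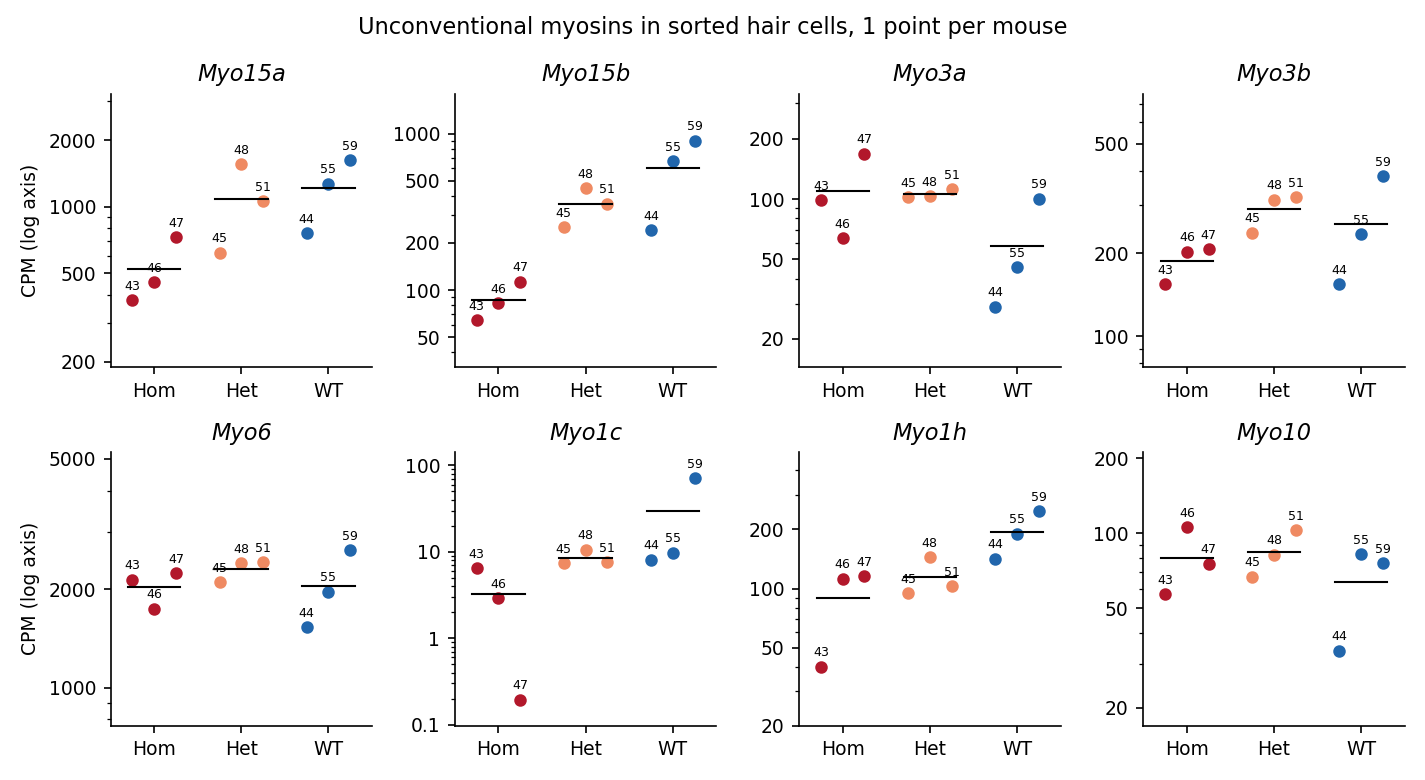
Level of each member in CPM (log axis) in every library, with homozygous mutants (Hom), heterozygotes (Het) and wild-type mice (WT) from left to right; each point is 1 mouse with its number, and the line is the mean of 3. The 3 Hom points of *Myo15b*, at 64.3 to 113 CPM, lie below all other points of that gene, and the WT 59 point of *Myo1c*, at 71.7 CPM, lies far above the other 8.

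*Myo15a*, which carries whirlin and Eps8 to the stereocilia tips and is needed for stereocilia to elongate, was also low in every homozygous mutant. Its gene is on chromosome 11 from 60469339 to 60528369. It was at 378, 457 and 730 CPM in homozygous mutants 43, 46 and 47, 621, 1555 and 1059 CPM in heterozygotes 45, 48 and 51, and 762, 1268 and 1622 CPM in wild-type mice 44, 55 and 59. The homozygous mutants did not overlap the wild-type mice, but the highest of them, at 730 CPM, was close to the lowest wild-type mouse, at 762 CPM, and above heterozygote 45. The means were 522 ± 185, 1078 ± 468 and 1217 ± 432 CPM in homozygous mutant, heterozygous and wild-type HCs (SD, n = 3 each).

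Relative to wild-type, *Myo15a* in homozygous mutants was at a log2 fold change of -1.31 (SE 0.36, 95% interval -2.07 to -0.56), and at an adjusted p of 0.120 in edgeR it was not called. It kept its direction under 19 of 19 alternatives, with values of -1.63 to -0.56, and was called under 7. Those were DESeq2 (adjusted p = 0.00918), limma-voom (0.0282), no low-count filter (9.67e-04), the 2 genotypes alone (0.0527), and without wild-type 44 (0.0215), heterozygote 45 (0.0567) or heterozygote 48 (0.0703). Per Dmdo allele the slope was -0.66 (SE 0.19, adjusted p = 0.122, edgeR). Heterozygotes were close to wild-type, with a log2 fold change of -0.27 (95% interval -1.01 to 0.47, adjusted p = 1, edgeR).

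The share of *Myo15b* within the class XV pair was lowest in the homozygous mutants. Within each library, which takes scaling between libraries out of the comparison, reads of *Myo15b* per read of *Myo15a* were 0.170, 0.180 and 0.155 in homozygous mutants 43, 46 and 47, 0.407, 0.289 and 0.337 in heterozygotes 45, 48 and 51, and 0.318, 0.524 and 0.557 in wild-type mice 44, 55 and 59. The homozygous mutants were tightly grouped and below all other libraries, with a mean of 0.169 ± 0.0126 against 0.344 ± 0.0593 in heterozygotes and 0.466 ± 0.129 in wild-type mice (SD, n = 3 each). These ratios are a description, and the difference between the genotypes was not tested. The encoded proteins of 3511 and 3033 residues were 39.6% identical over 2168 aligned residues, and the transcripts shared no run of 31 bases.

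*Myo3a* and *Myo3b* encode class III myosins, which join a kinase to a motor and carry espin proteins to the stereocilia tips. They are on chromosome 2, *Myo3a* from 22227503 to 22618252 and *Myo3b* from 70039126 to 70429198, and their proteins were 62.7% identical over 1147 aligned residues. Neither was called in any comparison in the edgeR fit of all 9 libraries. Their values leaned in opposite directions in homozygous mutants.

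*Myo3a* was at 98.5, 63.5 and 168 CPM in homozygous mutants 43, 46 and 47, 102, 104 and 112 CPM in heterozygotes 45, 48 and 51, and 28.9, 45.5 and 100 CPM in wild-type mice 44, 55 and 59. All heterozygotes were above all wild-type mice, although only just above wild-type 59, and the homozygous mutants overlapped both. *Myo3a* was 1 of 8 members higher in every heterozygote than in every wild-type mouse, where 6.78% of all genes tested were, and 0 of 8 were lower in this way, where 4.11% were. Its log2 fold change was 0.81 (SE 0.42, 95% interval -0.06 to 1.68, adjusted p = 0.410) between homozygous mutants and wild-type and 0.75 (SE 0.42, adjusted p = 1) between heterozygotes and wild-type, both in edgeR. The direction in homozygous mutants was the same under 19 of 19 alternatives, at 0.37 to 1.79, and the gene was called under 0 of them.

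*Myo3b* was at 155, 203 and 207 CPM in homozygous mutants 43, 46 and 47, 238, 314 and 320 CPM in heterozygotes 45, 48 and 51, and 154, 235 and 382 CPM in wild-type mice 44, 55 and 59. Every homozygous mutant was below every heterozygote, while the wild-type mice spanned the range of both. Its log2 fold change was -0.54 (SE 0.30, 95% interval -1.17 to 0.08, adjusted p = 0.455) between homozygous mutants and wild-type and -0.62 (SE 0.30, adjusted p = 0.730) between homozygous mutants and heterozygotes, in edgeR. The first was negative under 18 of 19 alternatives and 0.02 at its highest. Per Dmdo allele the slope of *Myo3b* was -0.27 (adjusted p = 0.498, edgeR), and under 1 of 18 alternatives, without wild-type 44, it was called, at -0.42 (adjusted p = 0.0910, edgeR).

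Reads of *Myo3a* per read of *Myo3b* were 0.638, 0.313 and 0.811 in homozygous mutants 43, 46 and 47, 0.430, 0.330 and 0.350 in heterozygotes 45, 48 and 51, and 0.187, 0.194 and 0.263 in wild-type mice 44, 55 and 59. All mutant libraries, with 1 or 2 Dmdo alleles, were above all wild-type libraries. The means were 0.587 ± 0.253 in homozygous mutants, 0.370 ± 0.0531 in heterozygotes and 0.215 ± 0.0420 in wild-type mice (SD, n = 3 each). Like the class XV ratio, this one is a description with no test.

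**Figure D2:**
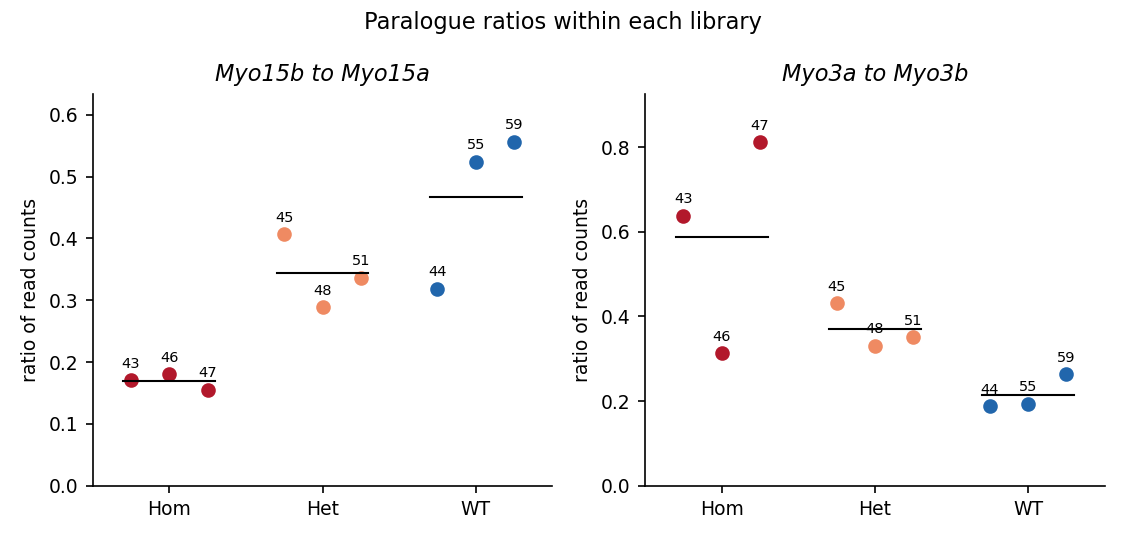
Ratio of read counts within each library for *Myo15b* to *Myo15a* and *Myo3a* to *Myo3b*, with homozygous mutants (Hom), heterozygotes (Het) and wild-type mice (WT) from left to right; points are mice with their numbers, and lines are means of 3. The Hom points of the first ratio, at 0.155 to 0.180, lie below all others, and the WT points of the second, at 0.187 to 0.263, lie below all others.

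*Myo6* encodes the myosin that moves toward the minus end of actin and anchors the membrane at the base of the stereocilia. It is on chromosome 9 from 80165031 to 80311729 and was the most abundant member. It was at 2135, 1741 and 2233 CPM in homozygous mutants 43, 46 and 47, 2098, 2397 and 2418 CPM in heterozygotes 45, 48 and 51, and 1529, 1966 and 2625 CPM in wild-type mice 44, 55 and 59. The 3 genotypes overlapped fully, and the wild-type mice spanned the values of all mutants. Homozygous mutants relative to wild-type were at a log2 fold change of -0.10, with a 95% interval of -0.58 to 0.39 (adjusted p = 0.920, edgeR), and it kept its sign under 13 of 19 alternatives.

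The class I members were *Myo1c*, proposed to be the adaptation motor that adjusts tension on the transduction channels, and *Myo1h*, its close relative. *Myo1c* is on chromosome 11 from 75650504 to 75673910 and *Myo1h* on chromosome 5 from 114289166 to 114365357. Their proteins were 60.7% identical over 1021 aligned residues and their transcripts shared 5 runs of 31 bases, the one pair of members with any.

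*Myo1h* was at 40.0, 112 and 116 CPM in homozygous mutants 43, 46 and 47, 94.8, 145 and 103 CPM in heterozygotes 45, 48 and 51, and 142, 190 and 248 CPM in wild-type mice 44, 55 and 59. All homozygous mutants were below all wild-type mice, and heterozygotes overlapped both. Against wild-type, the log2 fold change in homozygous mutants was -1.20 (SE 0.36, 95% interval -1.96 to -0.44, adjusted p = 0.157, edgeR), which was not called. Its direction held under 19 of 19 alternatives, at -1.51 to -0.80, and it was called by DESeq2 (adjusted p = 0.0702), limma-voom (0.0372), without the low-count filter (0.0151) and without wild-type 44 (0.0490). In heterozygotes it was -0.86 (SE 0.36, adjusted p = 1, edgeR).

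Counts of *Myo1h* may hold reads of a neighbour. *Kctd10*, an adaptor gene of a ubiquitin ligase, lies on the opposite strand and overlaps 1530 exon bases of *Myo1h*, 25.8% of its exons, and the strand setting of HTSeq, the read counter, is not given in the sources. *Kctd10* was at 47.5 to 70.3 CPM in homozygous mutants, 60.1 to 108 CPM in heterozygotes and 92.3 to 119 CPM in wild-type HCs. Its own log2 fold change, homozygous mutants over wild-type, was -0.99 (SE 0.34, adjusted p = 0.214, edgeR). Whether reads of one entered the counts of the other was not tested.

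*Myo1c* was thinly covered. It was at 6.51, 2.92 and 0.194 CPM in homozygous mutants 43, 46 and 47, 7.36, 10.5 and 7.54 CPM in heterozygotes 45, 48 and 51, and 8.13, 9.76 and 71.7 CPM in wild-type mice 44, 55 and 59. Homozygous mutants were below all other libraries, and wild-type 59, the library apart on the first component, was far above all others. The lowest value, in homozygous mutant 47, was 6 reads. In homozygous mutants over wild-type the log2 fold change was -3.35 (SE 1.14, 95% interval -5.71 to -0.98, adjusted p = 0.212, edgeR), and without wild-type 59 it was -1.55 (adjusted p = 0.755). *Myo1c* was called by DESeq2 (adjusted p = 0.0351), without the low-count filter (0.0671) and without wild-type 44 (0.0788).

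*Myo10*, a class X myosin that travels to the tips of filopodia, is on chromosome 15 from 25622525 to 25813673. It was at 57.0, 106 and 75.5 CPM in homozygous mutants 43, 46 and 47, 67.1, 82.2 and 103 CPM in heterozygotes 45, 48 and 51, and 33.8, 82.5 and 75.9 CPM in wild-type mice 44, 55 and 59. The genotypes overlapped, and the lowest value was that of wild-type 44. Homozygous mutants over wild-type gave 0.23 on the log2 scale (SE 0.38, 95% interval -0.57 to 1.02, adjusted p = 0.866, edgeR), with the same sign under 17 of 19 alternatives. *Myo1h* and *Myo10*, the members with a match to the Dmdo seed shown above, were at -1.20 and 0.23 between homozygous mutants and wild-type. Neither was called in the edgeR fit of all libraries. Whether the Dmdo miRNA pairs with either transcript was not tested.

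**Figure D3:**
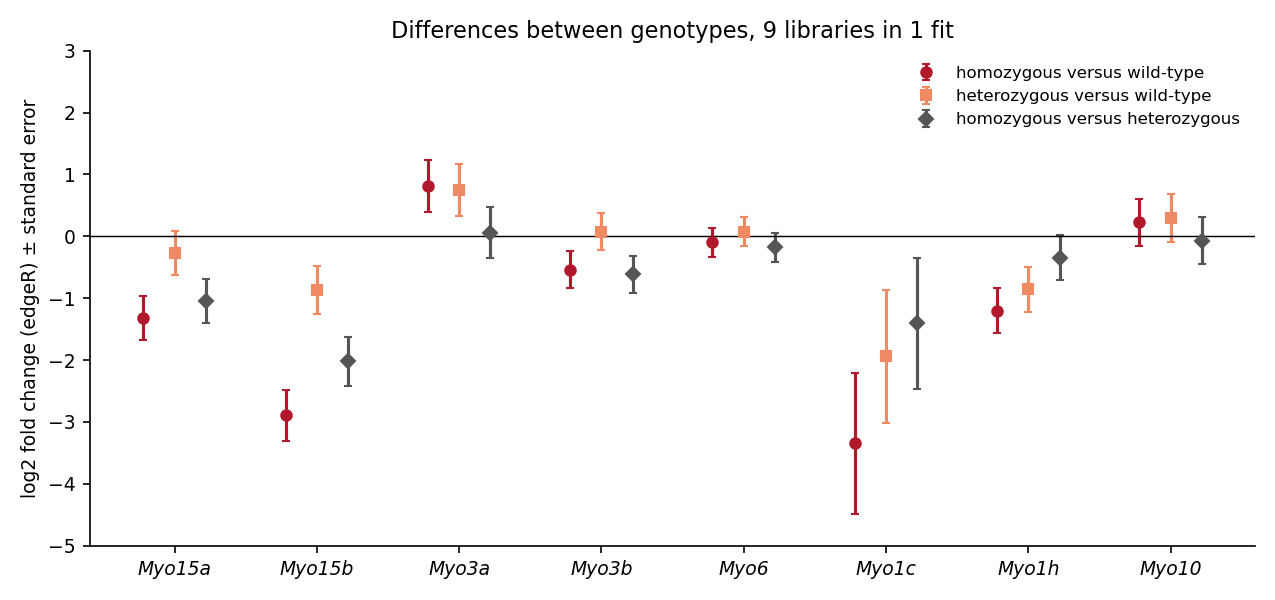
Log2 fold change with its standard error from edgeR for each member, with the 3 comparisons of genotypes in 1 fit of 9 libraries. *Myo15b* at -2.89 is the called difference, and the widest error, 1.14, is that of *Myo1c* between homozygous mutant and wild-type HCs.

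Over the whole set, 4 of 8 members (*Myo15a*, *Myo15b*, *Myo1c* and *Myo1h*) were lower in every homozygous mutant than in every wild-type mouse, where 7.72% of all genes tested were, and 0 of 8 were higher, where 9.15% were. The same 4 had an unadjusted p under 0.05 in edgeR, where 8.19% of genes did so in that direction, and 0 of 8 were higher at this level, where 4.92% were. The median log2 fold change of the 8 was -0.87, against -0.02 for all genes tested. Between homozygous mutants and heterozygotes, *Myo15b*, *Myo3b* and *Myo1c* did not overlap, 3 of 8 lower against 7.44% of all genes, while 0 of 8 were higher against 6.65%, and the median was -0.48 against 0. edgeR called 0 of 8 members in that comparison and 0.00659% of genes. At an unadjusted p under 0.05 there were 2 of 8 lower (*Myo15a* and *Myo15b*), where 3.89% of genes were, and 0 higher, where 2.9% were. Bulk RNA of sorted cells cannot tell fewer cells of a type from less RNA per cell.

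Between heterozygotes and wild-type, edgeR called 0 of 8 members and 0% of all genes. DESeq2 and limma-voom also called 0 members there, while 45 genes and 1 gene were called over the whole table. In edgeR 2 of 8 members, *Myo15b* and *Myo1h*, had an unadjusted p under 0.05, both lower in heterozygotes, where 2.73% of genes did, and 0 were higher, where 1.79% did. The median over the members was -0.10 against -0.03 for all genes. On the scale of mean log2 CPM, heterozygotes stood 0.17 of the way from wild-type to homozygous mutant for *Myo15a*, 0.23 for *Myo15b* and 0.61 for *Myo1h*.

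Levels of different members were compared per kilobase of exon. In wild-type HCs the order was *Myo6* at 169 ± 45.7, *Myo15a* at 95.4 ± 33.9, *Myo15b* at 61.2 ± 33.9, *Myo3b* at 36.5 ± 16.4, *Myo1h* at 32.7 ± 8.99, *Myo3a* at 7.34 ± 4.71, *Myo10* at 6.33 ± 2.61 and *Myo1c* at 4.53 ± 5.50 CPM per kilobase (SD, n = 3). On this exon scale neighbours in the order overlapped between mice, except that *Myo1h* and *Myo3a* did not. Per kilobase of coding sequence, *Myo6* at 394 to 676 CPM and *Myo15a* at 72.3 to 154 CPM did not overlap either. There *Myo15b*, *Myo3b* and *Myo1h* had close wild-type means of 66.3, 64.2 and 62.2 CPM. The bundle motors *Myo6* and *Myo15a* were thus above the class I and class X members in every wild-type mouse.

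*Myo15b* was the member whose place changed most. It was sixth in homozygous mutants, at 8.80 ± 2.52 CPM per kilobase, where its mice overlapped those of *Myo3a* and *Myo10*, and in heterozygotes, at 35.8 ± 9.98, it came after *Myo3b*, whose mice it overlapped (SD, n = 3). *Myo6* and *Myo15a* were first and second in every genotype. *Myo1c* was last in each, at 0.487, 1.29 and 4.53 CPM per kilobase in homozygous mutant, heterozygous and wild-type HCs.

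**Figure D4:**
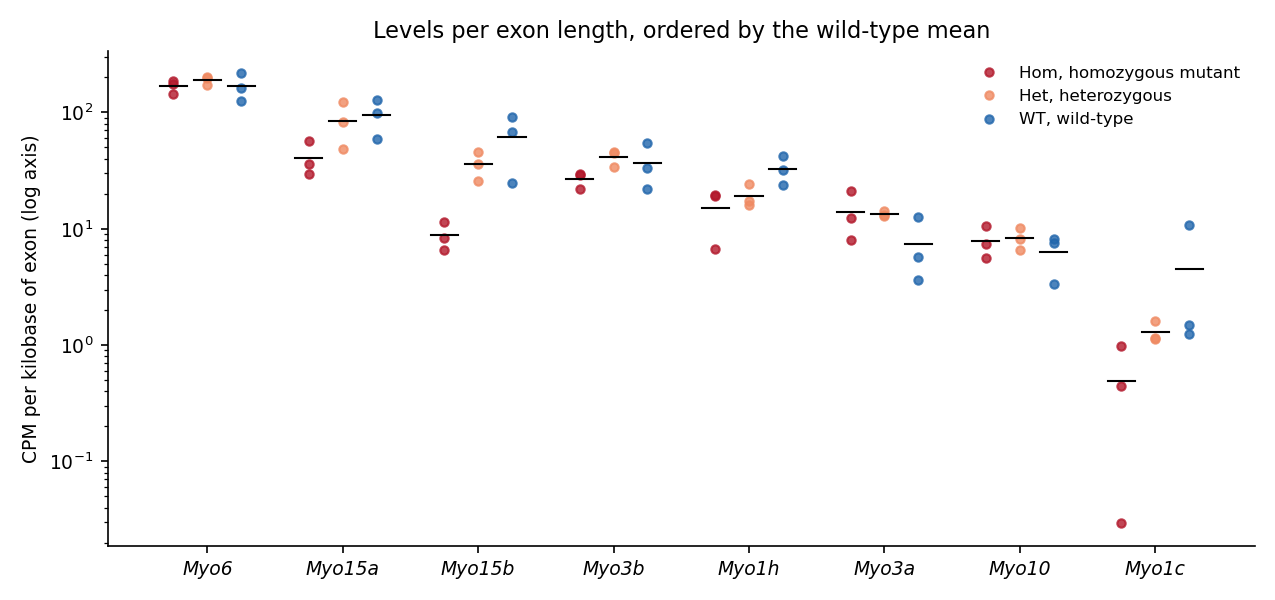
CPM per kilobase of exon (log axis) for the members in the order of their wild-type means, with homozygous mutants (Hom), heterozygotes (Het) and wild-type mice (WT) from left to right within a gene; points are mice and lines are means of 3. *Myo6* is highest in every genotype, at means of 169, 191 and 169 in Hom, Het and WT, and the drop of the Hom points is steepest for *Myo15b* among genes above 10 CPM per kilobase in WT.

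Per 100 reads of the 12 HC markers there were 0.603 ± 0.135 reads of *Myo15b* in homozygous mutants, 2.19 ± 0.420 in heterozygotes and 3.71 ± 2.07 in wild-type mice (SD, n = 3), so the homozygous mean was 0.162 of the wild-type mean. On this scale *Myo15a* in homozygous mutants was at 0.479 of wild-type, *Myo1h* at 0.528, *Myo3b* at 0.838, *Myo6* at 1.13, *Myo10* at 1.45, *Myo3a* at 2.06 and the thinly covered *Myo1c* at 0.126. For *Myo1h* these genotypes overlapped on it, at 0.905 in homozygous mutant 46 and 0.8965 in wild-type 44. The marker sum leaned on *Ccer2*, its most abundant gene, at 4591 to 6982 CPM in homozygous mutants and 3724 to 6590 CPM in wild-type mice. The other 11 markers summed to 7824 to 9308 CPM in homozygous mutant, 9135 to 11585 CPM in heterozygous and 9245 to 12414 CPM in wild-type HCs, so that 2 of 3 homozygous mutants were below every other library. This sum leaned in turn on the otoferlin gene *Otof*, at 1816 to 3081 CPM in homozygous mutants and 2915 to 6267 CPM in wild-type mice.

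Relative to those 11 markers the differences of the class XV genes and *Myo1h* were smaller, and homozygous mutants did not overlap wild-type mice. For *Myo1h* that separation was absent with *Ccer2* in the sum. *Myo15b* was at 0.792 to 1.22 reads per 100 in homozygous mutants and 2.62 to 7.35 in wild-type mice, with a ratio of means of 0.200. *Myo15a* was at 4.65 to 7.85 and 8.24 to 13.2 (0.579 of wild-type), and *Myo1h* at 0.492 to 1.44 and 1.53 to 2.02 (0.623 of wild-type), in homozygous mutants and wild-type mice. *Myo3b* was then at 1.01 of wild-type and *Myo6* at 1.35. Across the 9 libraries r of log2 CPM between the marker sum and *Myo15b* was 0.67 with *Ccer2* and 0.94 without it, and for *Myo15a* 0.79 and 0.96, over libraries that share genotypes. Neither these ratios nor r were computed with *Otof* also left out, so the part of that gene in them was not tested.

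Of the 12 HC markers edgeR called 1 lower and 0 higher between homozygous mutants and wild-type, where it called 0.915% and 0.237% of all genes. The called marker was *Ocm*, which encodes oncomodulin, a calcium-binding protein of some HC types, with a log2 fold change of -2.92 (SE 0.45, adjusted p = 0.00663). At an unadjusted p under 0.05, 4 were lower, where 8.19% of all genes were, and 1 was higher, where 4.92% were. Beside *Ocm* the lower ones were *Otof*, which encodes otoferlin of the HC synapse (-1.07), and the transcription factor genes *Gfi1* (-0.69) and *Barhl1* (-0.81), and the higher one was *Pvalb*, which encodes the calcium-binding parvalbumin (376 to 837 CPM in homozygous mutants and 139 to 451 CPM in wild-type mice), with edgeR adjusted p of 0.125 to 0.243 for these 4. DESeq2 called 3 markers lower and 1 higher, where it called 4.08% of genes lower and 2.37% higher, and limma-voom 2 lower and 1 higher, where it called 1.4% and 0.83%. *Pou4f3*, another transcription factor of HCs, was at 1050 to 1294 CPM in homozygous mutants and 1061 to 1159 CPM in wild-type mice. Beyond these values, the part of the HC markers' differences in those of the members was not tested.

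Markers of other cells also differed between libraries. The summed level of 12 supporting cell markers, all detected, was 3623 to 4020 CPM in homozygous mutant, 2874 to 3514 CPM in heterozygous and 2358 to 3365 CPM in wild-type HCs, so homozygous mutants were above all others. That order was carried by 1 gene, *S100a1*, a calcium-binding protein, at 2373 to 2622 CPM in homozygous mutant, 1212 to 2203 CPM in heterozygous and 1048 to 2049 CPM in wild-type HCs. The other 11 summed to 1250 to 1398 CPM in homozygous mutant, 1311 to 1716 CPM in heterozygous and 1112 to 1685 CPM in wild-type HCs, which overlapped. Across the 9 libraries r of log2 CPM between *Myo15b* and the sum was -0.96 with *S100a1* and 0.18 without it. Neuron and glia markers (6 of 8 detected) summed to 370 to 515 CPM in homozygous mutant, 334 to 459 CPM in heterozygous and 415 to 442 CPM in wild-type HCs. Mesenchyme markers (6 of 7) summed to 54.0 to 753 CPM in homozygous mutant, 61.0 to 124 CPM in heterozygous and 83.1 to 221 CPM in wild-type HCs, the highest in homozygous mutant 46. Those of macrophages, endothelium and blood (2 of 8) stayed at 8.55 CPM or less, with the globins *Hbb-bs* and *Hba-a1* at 0. Between homozygous mutants and wild-type these 4 lists held 0 calls in edgeR. At an unadjusted p under 0.05, 1 supporting cell, 3 neuron and glia and 1 mesenchyme marker were higher (4.92% of all genes), DESeq2 called 1, 2 and 1 of them higher, and limma-voom 1, 0 and 0. The supporting cell marker was *S100a1* in both tools. Beyond these values, the part of these cells in the values of *Myo15b* and the other members was not tested.

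The proteins with which these myosins work in the bundle gave 1 further call. Of 19 partner genes 18 were tested, and between homozygous mutants and wild-type 1 was lower and 0 were higher, with a median log2 fold change of -0.11 against -0.02 for all genes. That gene was *Espn*, which encodes the actin bundler espin, a cargo of class III myosins. *Espn* was at 576, 689 and 676 CPM in homozygous mutants 43, 46 and 47, 779, 1008 and 1053 CPM in heterozygotes 45, 48 and 51, and 1184, 1479 and 1496 CPM in wild-type mice 44, 55 and 59. The 3 genotypes did not overlap, with heterozygotes in the middle, and homozygous mutants over wild-type gave -1.19 on the log2 scale (SE 0.23, adjusted p = 0.0236, edgeR). The call was lost without wild-type 59 (-1.10, adjusted p = 0.104), homozygous mutant 43 (-1.08, 0.178) or homozygous mutant 47 (-1.22, 0.103), without both apart libraries (-1.14, 0.194) and when the sex transcripts entered the model (-1.15, 0.261). DESeq2 called 4 partners lower, *Espn*, *Espnl*, *Whrn* and *Ptprq*, and limma-voom the same set without *Whrn*, 4 and 3 of 18, where 4.08% and 1.4% of all genes were called lower by these tools.

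*Espnl*, an espin-like cargo of *Myo3b*, fell with the number of Dmdo alleles, by 0.43 per allele as a log2 value (SE 0.12, adjusted p = 0.0913, edgeR), as did *Espn*, by 0.59 (SE 0.11, adjusted p = 0.0106), which made 2 of 18 partners lower and 0 higher, where 1.34% and 0.435% of all genes were. Over 18 alternatives the slope of *Espnl* stayed negative, at -0.49 to -0.26, but it kept its call in 5, and leaving out any 1 library other than wild-type 44 or heterozygote 48 ended it. The slope of *Espn* kept its call in 15 of 18 and lost it without homozygous mutant 43. *Espnl* was at 662 to 835 CPM in homozygous mutants and 1070 to 1576 CPM in wild-type mice. *Whrn*, which encodes whirlin, the cargo of *Myo15a*, was at 116, 40.7 and 89.7 CPM in homozygous mutants 43, 46 and 47, 106, 214 and 196 CPM in heterozygotes 45, 48 and 51, and 99.8, 210 and 264 CPM in wild-type mice 44, 55 and 59. Homozygous mutants and wild-type overlapped through wild-type 44, and the log2 fold change was -1.33 (SE 0.40, adjusted p = 0.172, edgeR). *Ptprq*, a membrane phosphatase kept at the stereocilia base with *Myo6*, had a log2 fold change of -0.88 (SE 0.28, adjusted p = 0.176, edgeR).

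The further myosin genes listed gave 0 calls between homozygous mutant and wild-type HCs in edgeR and in limma-voom. DESeq2 called *Myo9b* and *Myh14* lower, against its 4.08% of all genes. *Myo7a*, which the study names as significantly downregulated in homozygous mutants, was in none of these lists. Of 16 other unconventional myosins 13 were tested, with a median log2 fold change of -0.37 and 1 lower at an unadjusted p under 0.05, where 8.19% of all genes were. That was *Myo9b*, at 64.7, 51.4 and 47.5 CPM in homozygous mutants 43, 46 and 47, against 97.8, 86.4 and 138 CPM in wild-type mice 44, 55 and 59 (log2 fold change -1.07, SE 0.33, adjusted p = 0.162). Next by p were *Myo1d*, *Myo5b* and *Myo5a*, at -2.37, 0.46 and -0.59 (adjusted p = 0.398, 0.562 and 0.753). *Myo1d*, like *Myo1c*, was thinly covered, down to 7 reads in homozygous mutant 46.

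All 8 chains of class II, the filament-forming myosins, were tested, and their median was -0.20. *Myh14*, a non-muscle heavy chain and a human deafness gene, had a log2 fold change of -1.18 (SE 0.38, adjusted p = 0.187, edgeR), and *Myh9*, also linked to deafness in humans, -0.73 (SE 0.31, adjusted p = 0.311). Both had an unadjusted p under 0.05, 2 of 8 lower and 0 higher, where 8.19% and 4.92% of all genes were. The light chains *Myl12a* and *Myl6* were at 0.58 and 0.41 (adjusted p = 0.563 and 0.586).

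The members varied together to different degrees across the 9 libraries, as a description over points that share genotypes. Pearson's r of log2 CPM was 0.93 for *Myo15a* and *Myo15b*, 0.81 for *Myo15a* and *Myo1h* and 0.80 for *Myo15b* and *Myo1h*. *Myo3a* did not follow this trio, with r of -0.14 to *Myo15b*, but had r of 0.80 to *Myo6*. Over all other genes tested, those most like *Myo15b* were *Sall3*, a zinc finger transcription factor (0.99), *F2r*, the thrombin receptor (0.98), and *Atp6v0a1*, a subunit of the vacuolar proton pump (0.97), and 78 of 15183 genes had r above 0.9.

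**Figure D5:**
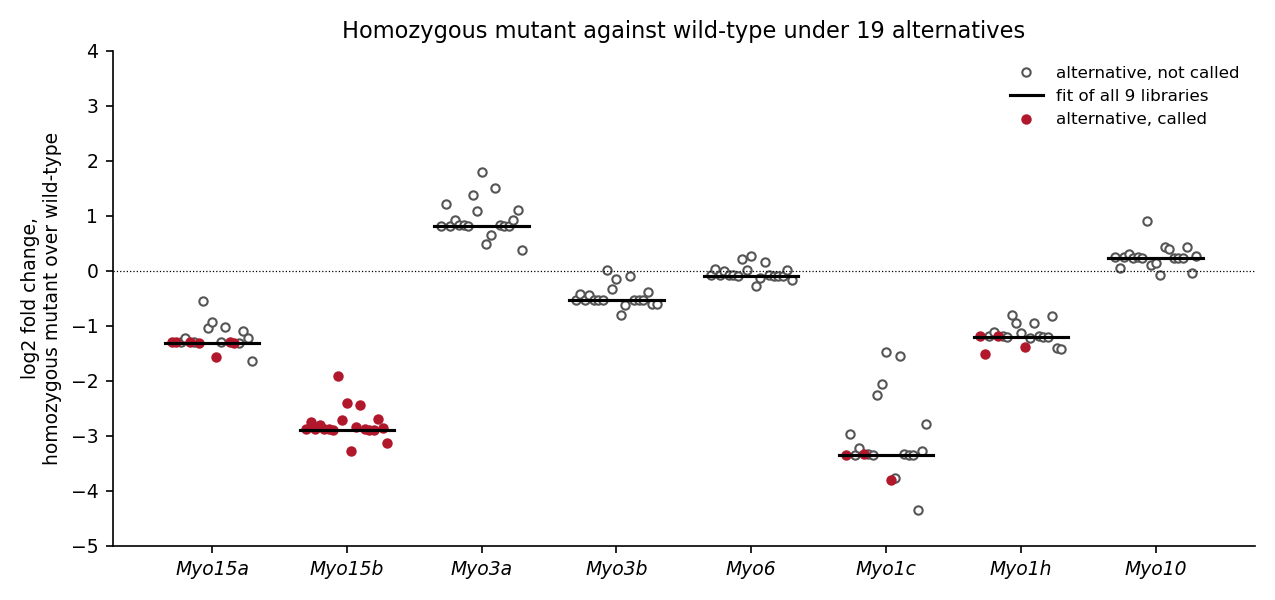
Log2 fold change between homozygous mutant and wild-type HCs for each member under 19 alternatives, with filled points for alternatives that called the gene, open points for those that did not and a line for the fit of all 9 libraries. All *Myo15b* points are filled and lie between -3.28 and -1.92, while *Myo15a* has 7 filled points, *Myo1h* 4 and *Myo1c* 3.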

How the data were processed

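The authors aligned paired reads to GRCm38 with HISAT2 2.0.4 and counted reads over coding regions per gene with HTSeq, and they deposited raw counts with no normalization, 1 library per mouse. Quality control used FastQC. Libraries were matched to genotype and mouse number by their labels. Every pair of replicates of a genotype differed by more than sampling noise, so all 9 were kept as replicates.

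From the deposited counts, CPM (by library totals), CPM per kilobase of exon (GENCODE vM21, GRCm38) and within-library ratios were computed in Python 3.11.15 with pandas 2.3.3. Genotypes were compared with edgeR 4.0.16 by its quasi-likelihood test (R 4.3.3, TMM, robust, 9 libraries in 1 fit), on genes that reached 20 reads in 2 or more mice of a genotype. A call needed an adjusted p (Benjamini-Hochberg over all genes) under 0.1 and a fold above 1.5, and the trend with 0, 1 or 2 alleles had no fold threshold. Intervals use the test's degrees of freedom. The design follows the study's filter and thresholds, with DESeq2 1.42.0, its tool, as an alternative. Other alternatives were limma-voom (limma 3.58.1) with quality weights, RLE or library totals, no filter or filterByExpr, the compared genotypes alone, mouse number (47 and lower against 48 and higher) or sex transcripts as a term, both apart libraries left out and leaving out 1 library at a time. The code was checked on simulated counts of homozygous mutants and wild-type mice. There, planted differences of 1.5-fold yielded 0 edgeR calls among 49 genes, and those of 2-fold yielded 2 among 50. Larger ones, of 4-fold and 8-fold, yielded 24 and 35 calls, each among 50 genes, while 4 genes with no planted difference were called. A missing call in edgeR thus says little about a difference of 2-fold or less, and many differences of 4-fold or 8-fold were missed too.

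All 8 members are named, of each further list up to 4 tested genes of smallest p, and for each called member the 3 genes of highest r. Members, lists and settings were chosen with earlier results of these data known. Protein identities come from translated GENCODE transcripts (Biopython 1.88), and promoters and the miRNA from RefSeq. The authors' result tables were not used.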

Additional observations from a re-analysis of the deposited data

How the results depend on the processing

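No paired analysis was possible because each mouse number occurs once, so the genotypes share no number. Between homozygous mutant and wild-type HCs the members called, 1 in the fit above, numbered 4 with DESeq2, 3 with limma-voom, 4 without the low-count filter, 2 with the compared genotypes alone and 1 to 4 with 1 library left out (4 without wild-type 44, 2 without heterozygote 45 or 48). *Myo15b* was among them each time. Genes called, 175 above, numbered 966, 338 and 562 with DESeq2, limma-voom and no filter, 25 with the mouse numbers, 15 with the sex transcripts, 27 without both apart libraries and 22 (without homozygous mutant 43) to 739 (without wild-type 44). For the trend, members called (1 above) numbered 4, 3 and 3 with DESeq2, limma-voom and no filter, 0 without both apart libraries and 1 to 5 with 1 left out (5 without wild-type 44, 2 without heterozygote 48). Genes called (270) numbered 1038, 783 and 466, then 59 with the mouse numbers, 14 with the sex transcripts, 21 without both and 39 (without homozygous mutant 43) to 929 (without wild-type 44). Between homozygous mutants and heterozygotes, members (0) numbered 1, 2 and 2 with DESeq2, limma-voom and no filter, 1 with the compared genotypes alone and 0 to 1 with 1 left out. Genes (1) numbered 147, 151 and 69, then 3 with the compared genotypes alone, 0 with the mouse numbers and 0 to 6. Between heterozygotes and wild-type, genes (0) numbered 45, 1 and 3, then 1 with the mouse numbers and 0 to 1, and members 0 in every setting. Per kilobase of coding sequence, wild-type levels were 526 CPM for *Myo6*, 116 for *Myo15a*, 66.3 for *Myo15b*, 64.2 for *Myo3b*, 62.2 for *Myo1h* and 10.4 for *Myo10*. The order of the members was kept in wild-type and heterozygous HCs, while in homozygous mutants *Myo15b* came seventh, after *Myo10*. The sum of HC markers without *Ccer2* was added after seeing the data. The cause of these changes was not tested. Scaling moved the median of all genes by less than 0.1 on the log2 scale.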
